A study of Mus musculus with 30 samples.

Results

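Mbp, Pmp22, Prx, Sox10, S100b, Ngfr and Gap43, genes of Schwann cells and their myelin, were followed in the regenerating mouse digit tip. These 7 genes were taken by symbol from the 20321 genes of the expression tables, and all 7 had enough reads to be among the 13793 genes tested. RNA came from the distal phalanx (P3, the bone segment that carries the nail) of hindlimb digit 3 of adult male C57Bl/6 mice, 9 to 10 weeks old, after amputation of the tip by a cut that removed little enough of the bone for it to regenerate. The digit was collected from 6 mice at 7 d and from 3 mice at each of the other 8 times (0 h, then 3 h, 6 h, 12 h and 24 h, then 3 d, 14 d and 21 d), 30 libraries in all. The 0 h digits were also amputated and are the only baseline.

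Schwann cells wrap the axons of peripheral nerves. In an intact nerve they make myelin, a stack of membrane held together by proteins such as Mbp and Pmp22 and anchored through periaxin (Prx). When an axon is cut, the Schwann cells beyond the cut are known to turn down their myelin genes and to become repair cells that raise the neurotrophin receptor Ngfr, Gap43 and growth factors. Sox10 and S100b mark the lineage in both states, and in the digit tip Schwann cells of this kind are known as a source of growth factors for the regenerating tissue. The comparison of interest was therefore of the myelin genes Mbp, Pmp22 and Prx with the repair genes Ngfr and Gap43 over the 9 time points, with Sox10 and S100b beside them.

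None of the 7 genes passed edgeR's test for a change over the time course. Across all genes, 1243 of 13793 (9.01%) did, by edgeR's quasi-likelihood F-test over the 9 time points with Benjamini-Hochberg adjustment at 0.05, and 24.1% had an unadjusted p under 0.05, against 0 of the 7. Their adjusted p-values from that test were 0.237 for Prx, 0.361 for Sox10, 0.384 for S100b, 0.440 for Gap43, 0.444 for Mbp, 0.607 for Pmp22 and 0.915 for Ngfr. Against 0 h in the same fit, none of Mbp, Pmp22 and Prx was called lower and neither Ngfr nor Gap43 higher. The intervals given with each gene show how large a change it could still have had. A p that misses the threshold does not show that a gene was constant.

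Total counts per library ran from 3167625 to 16277816 (median 6103688). The sample names carry dates, which fall into July to August (16 mice) and November to January (14 mice), and what the dates mark is not stated. The median total count was 5083528 with the earlier dates and 9836324 with the later ones. All mice at 3 h and 12 h have the earlier dates and all at 21 d the later ones, whereas 1 of the 0 h mice is early and 2 are late, so time and date cannot be told apart at 3 h, 12 h and 21 d except against those mice. At 7 d, 3 of the 6 mice gave the left foot and every other mouse in the series the right. Among them, replicate 3 had the fewest genes with a count in the series (12191) and stood apart for several of the genes below. The names also carry tags, and 4 of the 25 tags and 3 of the 13 dates recur at more than 1 time. The names of 0 h replicate 3 and 12 h replicate 2 share both. The study's methods count 30 mice, as many as there are libraries, so by that count each mouse gave 1 library. What a shared tag and date marks is not stated.

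In genome build GRCm38, Mbp spans chr18:82475146-82585637 on the plus strand, Pmp22 chr11:63128982-63159547 on the plus strand and Prx chr7:27499324-27520214 on the plus strand. Sox10 spans chr15:79154908-79165240 on the minus strand, S100b chr10:76253853-76261159 on the plus strand, Ngfr chr11:95568818-95587735 on the minus strand and Gap43 chr16:42248442-42340651 on the minus strand. Counts are per whole gene, summed over 8 annotated transcripts for Mbp. The study's methods kept reads with multiple hits, and expected counts were not whole in 30 mice for Mbp and 28 for Ngfr. They were not whole in 10 mice for Pmp22, 3 for S100b, 2 for Gap43, 1 for Prx and 0 for Sox10. The part of shared reads in these values was not tested. Exons of Prx share 300 bases with an antisense gene, Gm15541, and reads of the pair could not be told apart where strand was not used.

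All 7 genes were present in the digit, but at very different levels. Set per transcript length as TPM (the relative number of transcripts, the scale on which genes can be compared), the mean over 30 mice was 87.2 ± 19.4 (SD) for Pmp22, 26.1 ± 7.50 for Mbp, 21.6 ± 11.2 for S100b and 4.19 ± 1.94 for Prx. It was 3.38 ± 2.113 for Gap43, 3.23 ± 2.50 for Sox10 and 2.39 ± 1.18 for Ngfr. Pmp22 lay above Mbp in 30 of 30 mice and S100b above Prx in 28 of 30. The other neighbours in the order overlapped widely: Mbp exceeded S100b in 19 mice, Prx exceeded Gap43 in 17, Gap43 exceeded Sox10 in 16 and Sox10 exceeded Ngfr in 15 of 30. Mag, which sits at the axon side of the myelin sheath, had counts in only 14 mice and at most 8 of them, and Foxd3, an early lineage factor, in 11 mice.

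Promoters were looked up for 6 of the 7 genes (Mbp was not searched), and 4 had an entry in the RefSeq table for GRCm38.p6, as 7 windows of 300 bases, since Pmp22 has 4 start sites there. None of the 7 windows held, on either strand, ACAAAG or ACAATG (cores of Sox protein sites, in 28.6% of 32851 promoters) or GCGGGGGCG (an Egr site, in 2.91%), which says only that these letters are absent from these windows. The 250 bases before the start site are shown for Prx and S100b, the genes with the lowest unadjusted p against 0 h, and for Pmp22 and Ngfr, as a myelin and a repair gene beside them. Capitals mark CCAAT boxes (33.8% of such stretches hold one) and GGGCGG, the GC box (32.7%), on either strand, and overlapping boxes run together. The lines give chr7:27499074-27499323 (plus strand) for Prx, chr10:76253586-76253835 (plus) for S100b, chr11:63131207-63131456 (plus) for the Pmp22 start nearest to the annotated transcript, and chr11:95587699-95587948 (minus) for Ngfr, each 5′ to 3′ in the direction of transcription.
Prx: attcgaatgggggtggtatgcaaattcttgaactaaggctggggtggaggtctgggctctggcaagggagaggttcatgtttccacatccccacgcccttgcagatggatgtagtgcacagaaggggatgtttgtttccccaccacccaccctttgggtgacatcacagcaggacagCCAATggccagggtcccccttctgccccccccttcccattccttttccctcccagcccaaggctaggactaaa
S100b: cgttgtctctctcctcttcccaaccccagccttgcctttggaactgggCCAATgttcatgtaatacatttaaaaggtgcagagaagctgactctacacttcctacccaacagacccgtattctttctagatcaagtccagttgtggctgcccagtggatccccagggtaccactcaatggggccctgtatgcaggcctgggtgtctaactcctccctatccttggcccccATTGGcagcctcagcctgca
Pmp22: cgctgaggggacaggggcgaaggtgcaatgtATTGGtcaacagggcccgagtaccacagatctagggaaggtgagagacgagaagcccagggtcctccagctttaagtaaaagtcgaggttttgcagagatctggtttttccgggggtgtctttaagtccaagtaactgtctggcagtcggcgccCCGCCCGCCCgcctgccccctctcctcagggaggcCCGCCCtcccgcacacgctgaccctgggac
Ngfr: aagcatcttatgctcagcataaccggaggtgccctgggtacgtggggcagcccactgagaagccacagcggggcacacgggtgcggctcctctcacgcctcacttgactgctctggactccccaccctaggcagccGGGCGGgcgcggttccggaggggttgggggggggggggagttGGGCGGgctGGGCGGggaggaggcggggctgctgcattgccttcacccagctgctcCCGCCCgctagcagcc
Prx held 1 CCAAT box and no GC box, and S100b 2 CCAAT boxes and no GC box. Pmp22 held 1 CCAAT box and 3 GC boxes and Ngfr 4 GC boxes, in stretches with 61.2% and 70.4% G and C against 56.4% for Prx and 53.6% for S100b. TATAAA, in 12.4% of all such stretches, was in none of the 4.

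Counts scaled to library size (CPM, the read count relative to the total of the library, after TMM normalization) in each mouse are given for the genes in turn, in the order of the replicates. Mbp, the basic protein that holds the inner faces of the myelin membrane together, was at 44.7, 36.9 and 34.6 CPM at 0 h and at 45.3, 61.2 and 39.0 at 3 h. It was at 39.2, 32.2 and 51.1 at 6 h, at 39.6, 46.0 and 29.7 at 12 h and at 49.7, 46.1 and 34.6 at 24 h. Later it was at 37.6, 34.4 and 32.8 at 3 d, from 10.7 to 40.3 with a median of 32.7 at 7 d, at 32.0, 35.6 and 37.1 at 14 d and at 24.3, 27.4 and 38.6 at 21 d. Every time overlapped 0 h. The mean was highest at 3 h, 48.5 ± 11.4 (SD, n = 3), and lowest at 21 d, 30.1 ± 7.56, a log2 fold change of -0.37 ± 0.29 (SE) against 0 h with a 95% interval from -0.96 to 0.23. The 95% intervals of Mbp against 0 h stayed between -0.96 and 0.93 on the log2 scale at all 8 later times.

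Pmp22, a small membrane protein of compact myelin that fibroblasts and other cells also make, had the narrowest intervals of the 7. It was at 70.7, 69.9 and 72.5 CPM at 0 h, at 80.9, 117 and 56.7 at 3 h and at 68.9, 43.3 and 62.2 at 6 h. At 12 h it was at 57.6, 82.5 and 73.7, at 24 h at 76.6, 74.96 and 66.8 and at 3 d at 82.8, 95.2 and 69.9. It ran from 62.0 to 86.6 with a median of 66.4 at 7 d, and was at 54.2, 87.5 and 87.4 at 14 d and at 69.7, 61.3 and 70.3 at 21 d. Only at 6 h did all mice lie below those at 0 h, with a log2 fold change of -0.29 ± 0.22 and an adjusted p of 0.894 by edgeR. Its intervals against 0 h ended at -0.74 and 0.71 at the widest.

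Prx, periaxin, which links the myelin-forming Schwann cell to its surroundings, had the lowest p of the 7. It was at 12.1, 19.4 and 11.0 CPM at 0 h, at 10.4, 8.49 and 10.8 at 3 h, at 10.3, 4.46 and 5.48 at 6 h and at 9.10, 18.7 and 12.0 at 12 h. It was at 11.2, 9.10 and 9.58 at 24 h and at 10.4, 12.0 and 14.6 at 3 d. At 7 d it ran from 2.53 to 11.1 with a median of 6.28, at 14 d it was at 4.59, 9.06 and 8.23, and at 21 d at 5.83, 5.86 and 11.1. All mice at 3 h, 6 h and 14 d lay below all at 0 h, as did 5 of 6 at 7 d. Against 0 h the log2 fold change was -1.07 ± 0.46 at 6 h (95% interval -2.01 to -0.14, unadjusted p = 0.0255), -1.12 ± 0.38 at 7 d (-1.90 to -0.34, unadjusted p = 0.00636) and -0.95 ± 0.45 at 14 d (-1.87 to -0.03, unadjusted p = 0.0442) by edgeR. The adjusted p-values were 0.581, 0.136 and 0.536, so none passed. At 7 d the difference depended on the mice compared: on the log2(CPM + 1) scale it was -0.21 within the earlier dates (2 mice against 1) and -1.58 within the later dates (4 against 2), and the adjusted p ranged from 0.0669 to 0.561 as each mouse was left out. By limma, added after the data were seen, Prx was called over the course (adjusted p = 0.0417, with 14% of all genes called) and at 7 d (log2 fold change -1.35, adjusted p = 0.0345, with 2.7% called), and neither passed once the date in the sample name was a random term (adjusted p = 0.337 and 0.276). The difference between the dates in the course of Prx over 6 times did not pass its own test (edgeR interaction, 21 mice, adjusted p = 0.765).

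Sox10, the transcription factor that specifies the lineage, was at 5.76, 9.17 and 3.52 CPM at 0 h, at 2.85, 0.894 and 4.70 at 3 h, at 5.01, 0.304 and 1.17 at 6 h and at 5.93, 4.71 and 8.07 at 12 h. At 24 h a single mouse held the highest value of the series, 14.7, beside 4.67 and 0.935. It was at 6.59, 3.82 and 3.64 at 3 d, from 1.03 to 4.99 with a median of 2.14 at 7 d, at 2.30, 4.84 and 4.24 at 14 d and at 1.111, 3.15 and 2.39 at 21 d. The 21 d mice all lay below 0 h, with a log2 fold change of -1.46 ± 0.77 (interval -3.04 to 0.12) and an adjusted p of 0.628. At 7 d, 5 of 6 mice lay below 0 h, with -1.32 ± 0.65 (interval -2.64 to 0.007, unadjusted p = 0.0511, adjusted p = 0.379 by edgeR). The 6 h value was -1.52 ± 0.79 (adjusted p = 0.725 by edgeR). On the log2(CPM + 1) scale the 6 h difference was -0.32 within the earlier dates and -2.67 within the later ones. Sox10 had 3 to 94 counts per mouse. Sox10 is also made by melanocytes. Of 8 melanocyte genes, Tyrp1, Slc45a2, Oca2 and Mlana were at or near 0 (at most 3, 1, 5 and 12 counts in any mouse), and Dct had at most 15. Tyr and Mitf had counts in all 30 mice, at a mean of 17.6 and 26.4 CPM, and Pmel in 26. The summed TPM of the 8 ran from 25.86 to 26.48 at 0 h and from 23.78 to 26.35 at 21 d. It spread more widely between: 12.55 to 34.23 at 3 h, 19.54 to 35.46 at 6 h, 14.58 to 27.14 at 24 h and 19 to 37.85 at 14 d. None of the 3 melanocyte genes tested changed over time, and their part in the Sox10 values was not tested.

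S100b, a calcium-binding protein widely used as a Schwann cell marker, had the largest differences from 0 h of the 7 at 3 h, 6 h and 12 h. It was at 26.2, 28.2 and 20.3 CPM at 0 h, at 9.17, 0.894 and 22.8 at 3 h, at 10.7, 5.17 and 6.46 at 6 h and at 9.92, 11.2 and 7.90 at 12 h. The 6 h and 12 h mice all lay below every 0 h mouse. It was then at 10.3, 21.6 and 31.3 at 24 h, at 28.6, 12.3 and 18.0 at 3 d, from 4.66 to 29.7 with a median of 12.2 at 7 d, at 16.2, 21.8 and 14.2 at 14 d and at 1.67, 10.2 and 18.5 at 21 d, where all 3 were again below 0 h. The log2 fold change against 0 h was -1.75 ± 0.68 at 6 h (interval -3.13 to -0.36, unadjusted p = 0.0154, adjusted p = 0.498), -1.36 ± 0.67 at 12 h (-2.73 to 0.00, unadjusted p = 0.0503, adjusted p = 0.652) and -1.31 ± 0.66 at 21 d (-2.65 to 0.04, adjusted p = 0.576) by edgeR. The 21 d value was -0.80 without 21 d replicate 1 and -2.05 without replicate 3. Fitted on the 6 mice of 12 h and 0 h alone, S100b was called at 12 h with a log2 fold change of -1.36 and an adjusted p of 0.0268, where 111 of 12711 genes (0.873%) were called. Of the libraries whose names share tag and date, leaving out 12 h replicate 2 gave an adjusted p of 0.0813 for S100b (0.207% of genes called). Leaving out 0 h replicate 3 gave 0.00631 (5.76% called). Without 0 h replicate 3, all 0 h mice had later dates and all 12 h mice earlier ones. That fit cannot tell time from date. At 6 h the difference on the log2(CPM + 1) scale was -1.19 within the earlier dates and -2.19 within the later ones. At 12 h it was -1.01 within the earlier dates (3 mice against 1).

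**Figure D1:**
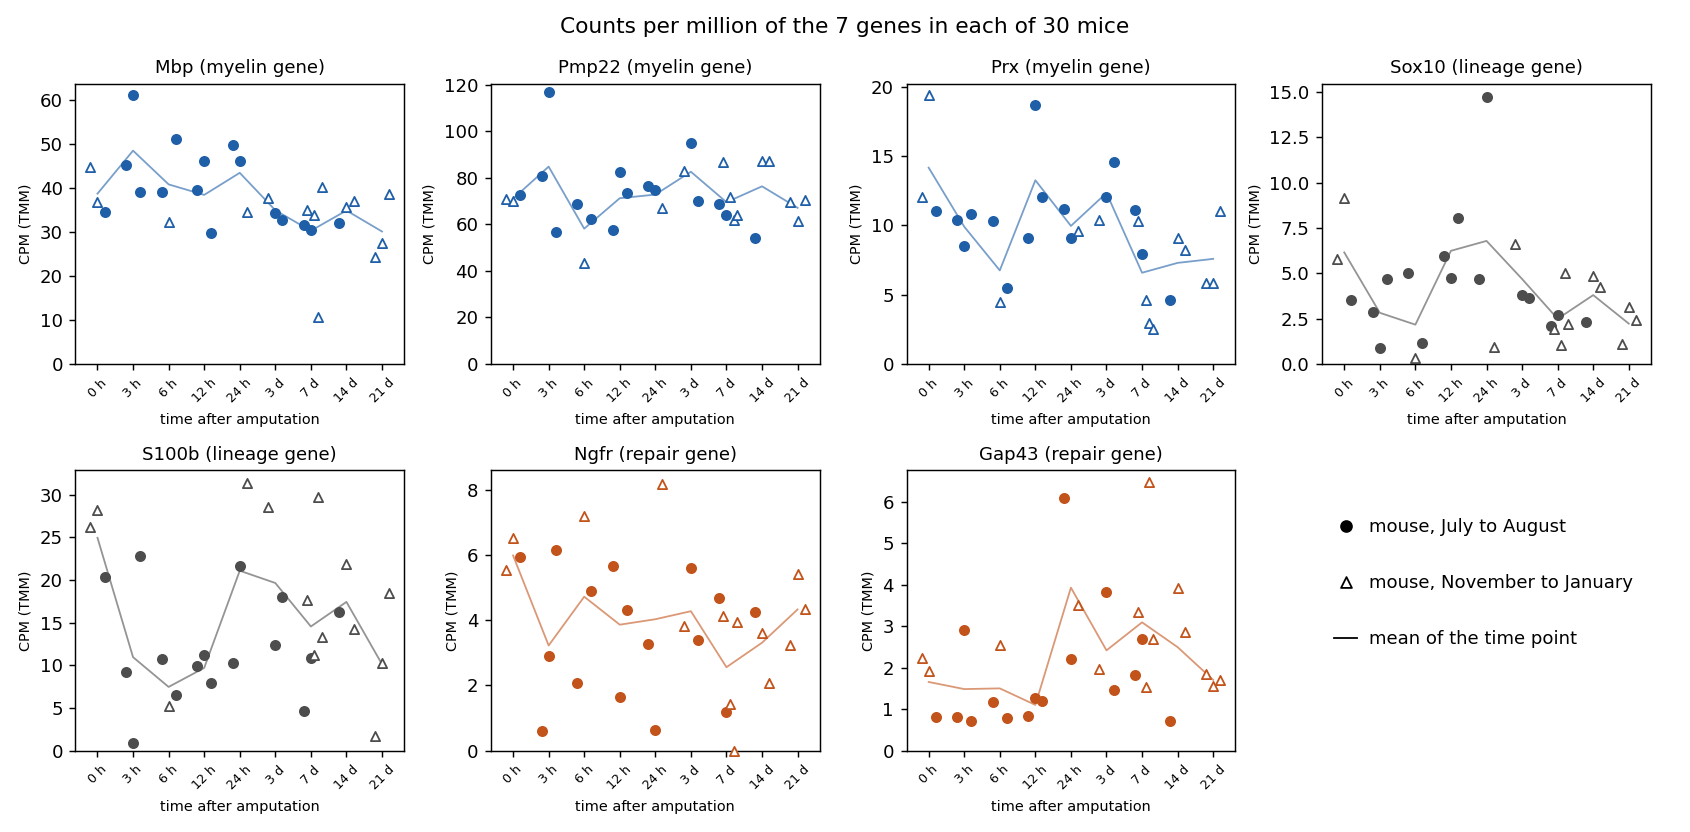
Each panel plots CPM after TMM normalization (vertical axis, from 0) against time after amputation for 1 gene, with 1 point per mouse (filled circles for July to August, open triangles for November to January) and a line through the time point means. The Pmp22 points lie between 43.3 and 117 CPM, S100b lies at 20.3 to 28.2 CPM at 0 h and at no more than 11.2 CPM at 6 h and 12 h, and single mice set the highest Sox10 and Gap43 values.

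Ngfr, the low-affinity neurotrophin receptor and a classical mark of the repair state, passed the test at no time. It was at 5.52, 6.50 and 5.92 CPM at 0 h, at 0.612, 2.90 and 6.14 at 3 h, at 2.06, 7.19 and 4.89 at 6 h and at 5.65, 1.63 and 4.29 at 12 h. It was at 3.27, 0.627 and 8.18 at 24 h, at 3.83, 5.58 and 3.40 at 3 d and from 0 to 4.66 with a median of 2.68 at 7 d. At 14 d it was at 4.24, 3.60 and 2.08 and at 21 d at 3.24, 5.41 and 4.33. The 0 h mice lay close together, and all mice at 7 d, 14 d and 21 d were below them. Its log2 fold change at 7 d was -1.24 ± 0.69 (interval -2.65 to 0.18, adjusted p = 0.461 by edgeR), and the upper ends of its intervals at the 8 times reached 1.32. The mouse with 0 counts at 7 d was replicate 3, where a count of 0 allows up to 3 counts, or 0.554 CPM, by counting error alone.

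Gap43, a protein of growth cones that repair Schwann cells also make, had the fewest counts of the 7. It was at 2.24, 1.92 and 0.80 CPM at 0 h, at 0.815, 2.90 and 0.723 at 3 h, at 1.18, 2.53 and 0.783 at 6 h and at 0.827, 1.27 and 1.202 at 12 h. At 24 h it was at 6.07, 2.20 and 3.51. It was at 1.97, 3.82 and 1.46 at 3 d, from 1.54 to 6.46 with a median of 2.69 at 7 d, at 0.706, 3.91 and 2.86 at 14 d and at 1.85, 1.54 and 1.71 at 21 d. The 24 h mice overlapped 0 h, with a log2 fold change of 1.22 ± 0.70 (interval -0.22 to 2.66, adjusted p = 0.628 by edgeR) that was 0.75 without 24 h replicate 1, and the 7 d value was 0.87 ± 0.62 (-0.40 to 2.15, adjusted p = 0.606). Growing axons also carry Gap43. Of 8 axon and neuron genes, 2 of the 4 tested changed over the course, against 9.01% of all genes, the tubulin gene Tubb3 (adjusted p = 0.00386) and Stmn2, which regulates microtubules in growing axons (adjusted p = 0.00756). Stmn2 fell at 7 d, by 1.28 ± 0.27 on the log2 scale, with an adjusted p of 0.00786, and was at -0.07 ± 0.32 against 0 h at 21 d. At 7 d Prph was lower and Uchl1 higher than at 0 h, with log2 fold changes of -3.33 and 1.39. Neither passed edgeR's F-test over the course (adjusted p = 0.324 and 0.461). The summed TPM of the 8 was 133.29 to 177.49 at 0 h, 166.63 to 182.03 at 12 h, 68.64 to 103.54 at 24 h and 106.94 to 117.31 at 21 d. The neurofilament genes Nefl, Nefm and Nefh were at or near 0 (at most 13, 7 and 7 counts). The part of the 8 axon and neuron genes in the Gap43 values was not tested.

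Set side by side, none of the 56 pairs of gene and later time in edgeR's fit of all mice passed an adjusted p of 0.05 against 0 h, and 4 had an unadjusted p under 0.05. Among all genes, the share called against 0 h was 0.254% at 3 h, 0.189% at 6 h, 0.167% at 12 h, 0.493% at 24 h, 0.551% at 3 d, 2.34% at 7 d, 1.61% at 14 d and 1.94% at 21 d. The share with an unadjusted p under 0.05 was 7.24% at 6 h (2 of the 7 genes), 13.3% at 7 d (1 of 7) and 8.91% at 14 d (1 of 7). At the times with 0 of 7 it was 10.9% at 3 h, 7.67% at 12 h, 9.41% at 24 h, 6.66% at 3 d and 9.22% at 21 d. None of 28 pairs passed between successive late times, where 0.0653% of genes were called for 3 d against 24 h, 0.0145% for 7 d against 3 d, 0.435% for 14 d against 7 d and 0% for 21 d against 14 d. Prx at 7 d against 3 d had an unadjusted p of 0.0263, with 9.14% of all genes under 0.05, and an adjusted p of 0.511. All 8 contrasts share the 0 h mice.

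Where the mice of a time did not overlap those of 0 h, the gene was always lower. That held for 1 of 7 genes at 3 h (Prx; 10.6% of all genes), 3 at 6 h (Pmp22, Prx and S100b; 9.19%), 1 at 12 h (S100b; 9.86%) and 1 at 7 d (Ngfr; 3.44%). It held for 2 at 14 d (Prx and Ngfr; 11.8%) and 3 at 21 d (Sox10, S100b and Ngfr; 10.2%), and for none at 24 h and 3 d, where the shares were 9% and 7.08%. No member was higher than all 0 h mice in every mouse of a time. The share of all genes that were was 9.16% at 3 h, 8.61% at 6 h, 9.82% at 12 h, 8.77% at 24 h, 8.16% at 3 d, 3.92% at 7 d, 13.6% at 14 d and 12.5% at 21 d. The median log2 fold change of the 7 was -0.52 at 3 h, -0.33 at 6 h, -0.10 at 12 h, 0.04 at 24 h, -0.21 at 3 d, -0.77 at 7 d, -0.52 at 14 d and -0.46 at 21 d, beside medians from -0.01 to 0.01 over all genes tested. These medians are descriptions, since the genes were chosen with results known.

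**Figure D2:**
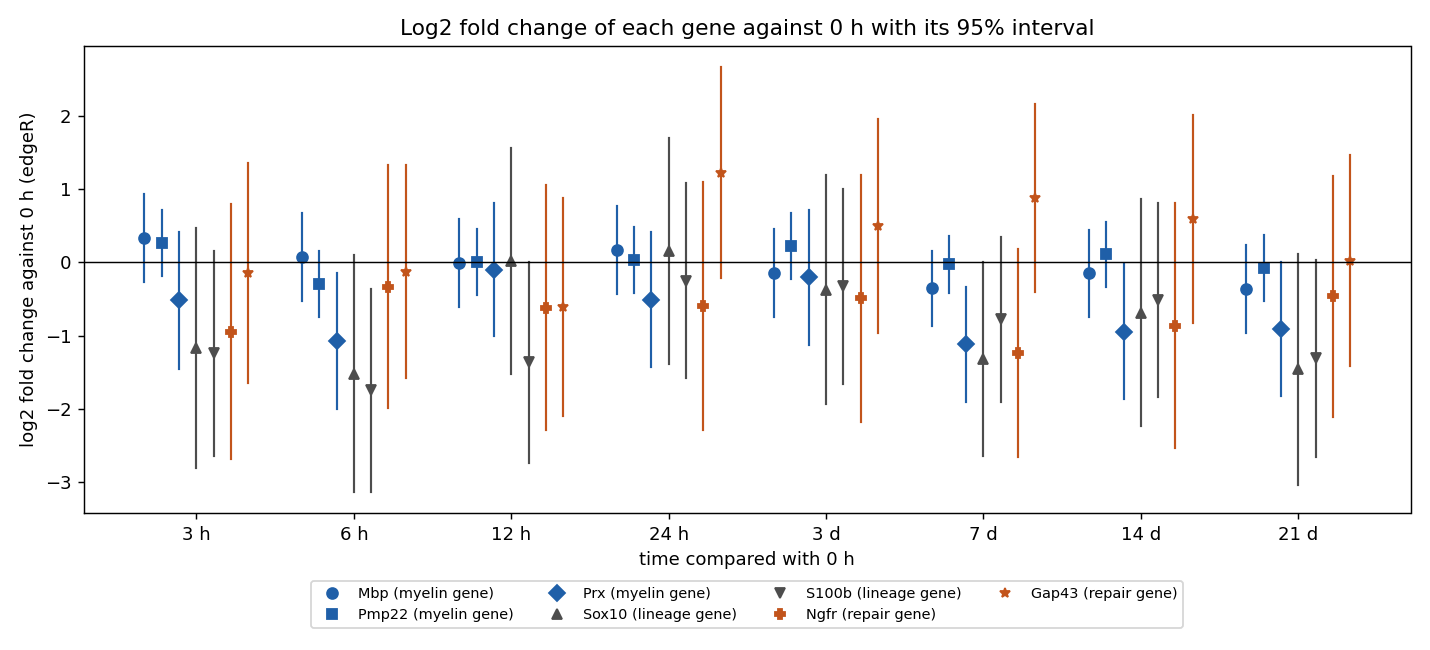
Log2 fold change against 0 h (vertical axis, edgeR) of each gene at the 8 later times (horizontal axis), with bars for the 95% interval; blue marks myelin genes, grey lineage genes and orange repair genes. The intervals of Mbp and Pmp22 are the narrowest and cover 0 throughout, and only those of Prx at 6 h, 7 d and 14 d and of S100b at 6 h lie wholly below 0.

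The balance of myelin to repair genes was taken as the mean log2(CPM + 1) of Mbp, Pmp22 and Prx minus that of Ngfr and Gap43 in each mouse. It is a description, given without a test. At 0 h it was 2.93, 3.02 and 3.16, a mean of 3.04 ± 0.12 (SD, n = 3). The mean was 3.62 ± 0.66 at 3 h, 2.87 ± 0.88 at 6 h, 3.45 ± 0.59 at 12 h and 2.93 ± 0.85 at 24 h, with 1 mouse at 6 h at 1.90 and 1 at 3 h at 4.36. From 3 d on the SD was smaller than at 3 h to 24 h: the mean was 3.04 ± 0.36 at 3 d, 2.82 ± 0.41 at 7 d (n = 6), 2.93 ± 0.23 at 14 d and 2.78 ± 0.30 at 21 d. The largest difference of a mean from 0 h was 0.58, at 3 h, and lay inside the SD of the 3 h mice. At 6 h and 24 h the single mouse with later dates was the lowest of its time, 1.90 and 2.20, and against the later 0 h mice alone the differences were -1.08 and -0.78. Within the earlier dates (2 mice against 1) they had the opposite sign, 0.20 and 0.13.

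**Figure D3:**
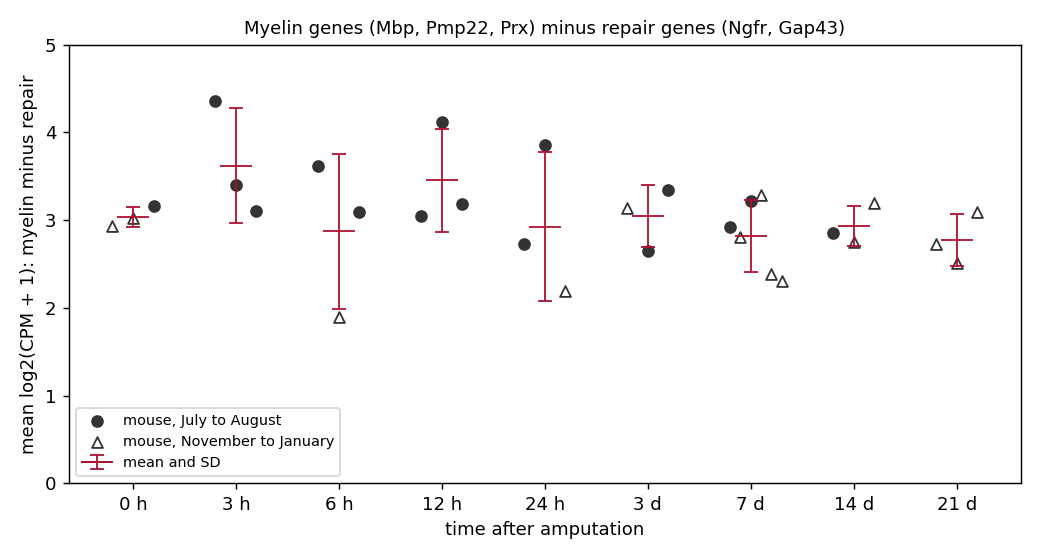
Myelin minus repair level in each mouse (vertical axis, mean log2(CPM + 1) of 3 myelin genes minus that of 2 repair genes) against time after amputation; red bars are the mean and SD of each time point. The time point means lie between 2.78 and 3.62, and the mice spread most at 3 h to 24 h.

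The wider lists tell how the other genes of these programmes fared. These lists were chosen with earlier results of these data known, so their counts beside the share of all genes are descriptions. Of 21 myelin genes, 18 were tested and 2 changed over time, against 9.01% of all genes: Cnp, an enzyme of uncompacted myelin that other cells also make (adjusted p = 0.0146), and Mal, a membrane protein of myelin and of epithelia (adjusted p = 0.0447). Cnp was at 7.19 ± 0.617 CPM at 0 h and 1.83 ± 1.77 at 3 h, without passing at any single time (adjusted p = 0.0622 at 3 h). Mal rose at 21 d, from 65.9 ± 13.1 to 140 ± 63.5 CPM, by 1.083 ± 0.276 on the log2 scale (adjusted p = 0.032). All 21 d mice have the later dates, and over the course Mal did not pass with date as a covariate (adjusted p = 0.0797) or with any of 16 of the 30 mice left out, up to 0.166 without 21 d replicate 1. The remaining 16 tested did not pass, among them Egr2, the transcription factor that drives myelination (adjusted p = 0.395). Egr2 was at 14.3 ± 8.30 CPM at 0 h and 3.17 ± 1.52 at 14 d, a log2 difference of -2.14 ± 0.72 with an adjusted p of 0.192. Fa2h, which makes myelin lipids, Dhh, a Schwann cell signal, Drp2, the partner of Prx, Cadm4, an adhesion protein of the internode, and Gldn, which helps cluster sodium channels at nodes, had adjusted p-values from 0.204 to 0.479.

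On the repair list, genes other than Ngfr and Gap43 changed. Of 22 genes, 19 were tested and 8 changed over time, against 9.01% of all genes. Lif, a cytokine of the interleukin 6 family, went from 2.27 ± 0.615 CPM at 0 h to 148 ± 59.1 at 24 h, a log2 rise of 6.01 ± 0.59 (adjusted p = 9.47e-07), was called higher from 6 h to 7 d, and fell by 2.84 from 7 d to 14 d. Tnc, a matrix protein of wounds, rose from 64.4 ± 7.95 to 475 ± 209 CPM at 21 d and was called higher from 12 h on. Cdh2, a cadherin that bone-forming and mesenchymal cells also carry, rose from 15.9 ± 6.23 to 108 ± 61.8 CPM at 14 d, and Runx2, the master factor of osteoblasts, from 11.8 ± 0.997 to 36.6 ± 15.9 CPM at 14 d. Jun, the factor known to direct the repair state, was lower than at 0 h at every time from 3 h to 14 d: 329 ± 49.8 CPM at 0 h and 86.0 ± 19.2 at 12 h, a log2 fall of 1.94 ± 0.29 (adjusted p = 0.000682). Atf3, an injury-induced factor, fell by 2.92 ± 0.70 at 7 d, from 31.1 ± 32.3 CPM at 0 h.

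Of the secreted factors on the repair list, Artn passed at 7 d (0.729 ± 0.0815 CPM at 0 h, 5.62 ± 3.48 at 7 d, log2 rise 2.91 ± 0.73, adjusted p = 0.0271) but not over the course (adjusted p = 0.0642). Gdnf changed over the course (adjusted p = 0.0261), at 6.98 ± 1.068 CPM at 0 h, 10.3 ± 3.47 at 12 h and 2.17 ± 1.22 at 3 d. It did not pass without the left-foot mice (adjusted p = 0.0712) or with any of 5 single mice left out, up to 0.0623 without 3 d replicate 3. Nrg1, the ligand of Erbb receptors on Schwann cells, changed as well (adjusted p = 0.0125), yet rested on 3 h, where it was at 10.1 ± 8.47 CPM against 1.17 ± 0.245 at 0 h. Without 3 h replicate 2 its adjusted p was 0.363. L1cam, an adhesion molecule of axons and Schwann cells, had an adjusted p of 0.289. Most genes that moved are made by other cells of the digit too. The summed TPM of 5 fibroblast genes, for example, went from 1980.69 to 2915.5 at 0 h to 10238.7 to 11592.2 at 14 d, and their part in these changes was not tested. In whole digits, fewer cells of a type and less RNA per cell cannot be told apart.

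Among 11 lineage genes, 9 were tested and 1 changed, against 9.01% of all genes. Erbb3, the neuregulin receptor that Schwann cells need and that skin epithelium also makes, had an adjusted p of 0.0114 over the course, with 103 ± 8.39 CPM at 0 h, 143 ± 19.1 at 3 h and 78.7 ± 16.4 at 21 d, and no single time passed. Without 3 h replicate 3 its adjusted p was 0.0921. Its partner Erbb2 (adjusted p = 0.479), the Schwann cell cadherin Cdh19 (0.424), the GDNF family receptor Gfra3 (0.643) and the sodium channel gene Scn7a (0.976) did not pass.

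**Figure D4:**
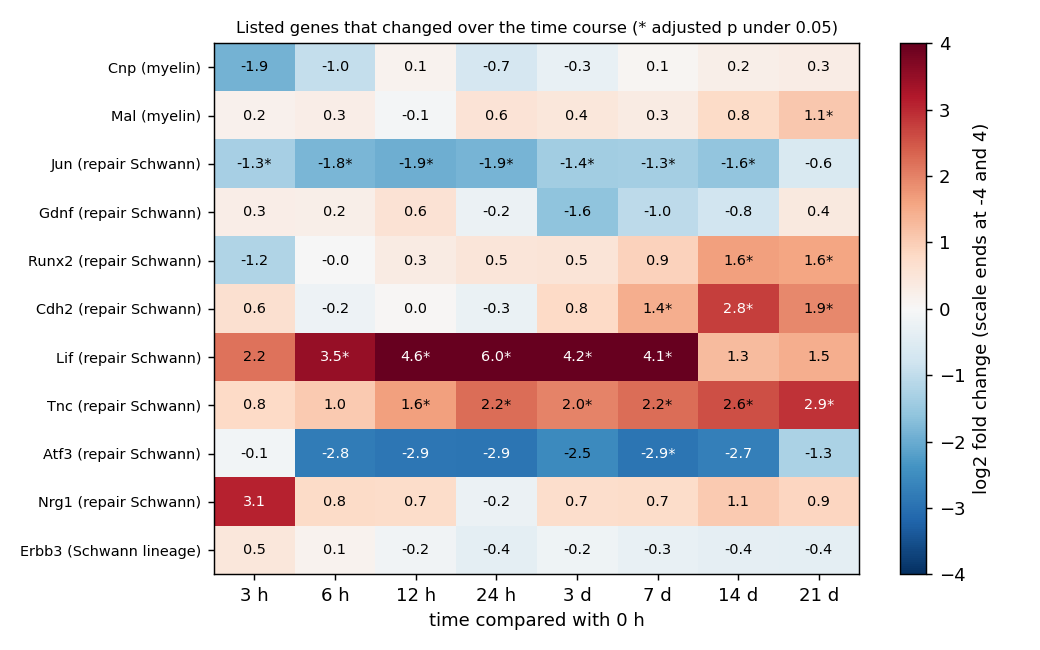
Log2 fold change against 0 h at each later time (columns) for the 11 genes of the myelin, repair and lineage lists that passed the F-test over the course (rows), in red for higher and blue for lower; values are printed in the cells and a star marks an adjusted p under 0.05. Lif and Tnc are higher and Jun lower over most of the course, and Cdh2 and Runx2 are higher at 14 d and 21 d.

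Whether mice of the same time point with more of 1 member also held more of another was examined on log2(CPM + 1) after subtracting the mean of each time point. Of 21 pairs, 0 passed adjustment (permutation within time points, 100000 resamples, two-sided), and 3 had an unadjusted p under 0.05. The strongest of these were Sox10 with S100b (Pearson r = 0.44, Spearman rho = 0.50, adjusted permutation p = 0.279 and 0.218) and Mbp with Pmp22 (r = 0.41, rho = 0.50, adjusted permutation p = 0.279 and 0.218). The r of largest size among the 21 was negative, Sox10 with Ngfr (r = -0.49, rho = -0.33, adjusted permutation p = 0.3425 and 0.640). For Ngfr with Gap43, r was -0.08.

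Each gene was also set against the mean level of 7 lists, members left out, which made 49 relations. Mbp followed 15 other myelin genes (r = 0.76, rho = 0.75, adjusted permutation p = 0.0103 and 0.00784, and r = 0.71 without the 2 mice farthest from the median). Within the earlier dates r was 0.41 (14 mice) and within the later ones 0.84 (11 mice). Pmp22 followed them less closely (r = 0.48, rho = 0.55, adjusted permutation p = 0.0273 and 0.0421, r = 0.44 without the 2 farthest mice, 0.61 and 0.65 within the dates). No relation of Prx, Sox10, Ngfr or Gap43 with any of the lists passed adjustment.

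S100b did not follow the mean level of the 7 lineage genes left without Sox10 (r = -0.23) or that of the myelin genes (r = -0.14). With Sox10 itself r was 0.44, and 0.75 and 0.72 within the earlier and later dates. That pair did not pass adjustment (adjusted permutation p = 0.279). S100b followed 6 genes of the eccrine sweat glands, which lie in the footpad skin: the water channel gene Aqp5, the keratins of simple epithelium Krt7, Krt8, Krt18 and Krt19, and the factor Foxa1. The relation had r = 0.87 and rho = 0.75 over 30 mice (adjusted permutation p = 0.0105 and 0.0157), r = 0.79 without the 2 mice farthest from the median, 0.93 within the earlier dates and 0.75 within the later ones. The low S100b mice at 3 h (0.894 CPM), 7 d (4.66) and 21 d (1.67) were the lowest of their time in the gland level too, at 2.115, 1.503 and 1.18 in mean log2(CPM + 1), against 3.64 to 4.06 at 0 h. The summed TPM of the 6 was 156.63 to 194.07 at 0 h, 73.47 to 120.55 at 6 h, 126.16 to 173.99 at 12 h and 20.78 to 142.79 at 21 d, and none of the 6 genes changed over the course. Their part in the S100b values was not tested. S100b is also known from cartilage and fat. With 5 cartilage genes r was -0.65 (rho = -0.54, adjusted permutation p = 0.0366 and 0.216, r = -0.57 without the 2 farthest mice, -0.62 and -0.80 within the dates), and with 3 fat genes 0.56 (rho = 0.53, adjusted permutation p = 0.295 and 0.230).

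**Figure D5:**
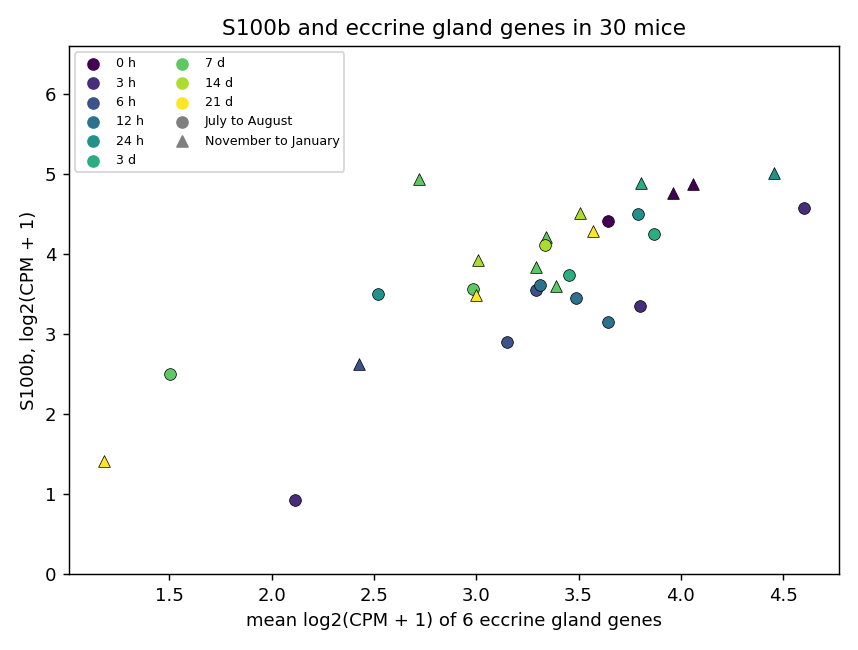
S100b (vertical axis, log2(CPM + 1)) against the mean log2(CPM + 1) of 6 eccrine gland genes (horizontal axis) in 30 mice, coloured by time, with circles for July to August and triangles for November to January. The 3 mice with the lowest S100b sit at the left of the plot, and the mouse at 7 d with 29.7 CPM of S100b lies above the other 7 d mice.

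The genes whose levels were most like each member over the 30 mice, out of 13182, were also listed, by Pearson r of log2(CPM + 1) and without a test. For S100b they were Adora1 (0.90), an adenosine receptor, Atp1b1 (0.90) and Fxyd2 (0.89), parts of the sodium pump, Plin2 (0.88), a coat protein of lipid droplets, and Ppp1r1b (0.85). For Mbp they were Boc (0.82), Prmt2 (0.81), Ints12 (0.80), Rad51d (0.80) and Gnai1 (0.79). Prx was most like Mrvi1 (0.74), Fmo1 (0.73), Wdr44 (0.69), Ace (0.69) and Chrm1 (0.69), and Sox10 most like Slc25a36 (0.71), Ncald (0.70), Slc20a1 (0.67), Sptb (0.67) and Pxmp4 (0.64). Ngfr was most like Atrx (0.75), Rmi2 (0.70), Cntf (0.68), Cdc73 (0.67) and Mettl25 (0.67). Gap43 was most like Relt (0.73), Ier5l (0.68), Igfbp5 (0.68), Il11 (0.67) and Wnt10a (0.67), and Pmp22 most like Ece1 (0.66), Aldh3b1 (0.65), Sod3 (0.64), Scml4 (0.63) and Dnajb9 (0.62). No member was among the 5 genes most like another member.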

How the data were processed

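RNA-seq values of 30 mice were used. The authors deposited expected counts per gene from RSEM, not normalized, TPM per mouse, and an average signal per time point, TPM scaled across mice by the median-by-ratio method, which enters no result here. Per the labels, reads were processed with CASAVA 1.8.2 and RSEM 1.2.3 against mm10; the study's methods name Bowtie and Ensembl genes. Of the expected counts above 0, 69.0% were whole.

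Counts were rounded and tested with edgeR 4.0.16 in R 4.3.3 (quasi-likelihood tests after TMM normalization and filterByExpr, Benjamini-Hochberg adjustment over all genes), with all mice in a single fit and no covariates. A standard error is the log2 fold change over the square root of F. TPM were used between genes, for the summed levels of gene lists at each time, and in an alternative of the myelin minus repair level. By the study's count of mice, the libraries of a time point come from separate mice. Mice of a time point differed by more than sampling noise (chi-square per degree of freedom at least 9.83 over 39 pairs). Correlations used Python 3.11.15, numpy 2.4.6 and scipy 1.17.1, and plots matplotlib 3.10.9. The methods were tested on simulated data. The floor of 3 counts covers counting error alone, since reads copied by PCR can come from 1 molecule. Alternatives were DESeq2 1.42.0 and its size factors, other filters, a threshold of 0.01, date as a covariate, removal of left-foot mice, fits of 2 times alone, limma 3.58.1 (voom) without and with the date in the sample name as a random term, and each mouse left out.

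The members and lists were chosen with earlier results of these data known. Named list genes are up to 10 per list with the lowest p over the course, plus those called against 0 h; Mag, Foxd3 and the genes of other cell types were added to describe the tissue. Some list genes enter the counts and list levels but are not reported here by name. The limma fits, the DESeq2, leave-out and left-foot alternatives for the lists, the fits of 12 h and 0 h without a mouse that shares tag and date, the cartilage and fat lists in the correlations and the search for 3 core promoter motifs were added after the data were seen.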

Additional observations from a re-analysis of the deposited data

Results flagged for a closer look

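At 7 d, the group of 6 mice, replicate 3 (a left foot with the later dates) lay far from the other 5 in 2 of the 8 measures examined. Its Mbp was the lowest, 10.7 CPM against at least 30.4 in the others, with a gap to the nearest mouse that was 0.664 of the whole range. Its Gap43 was the highest, 6.46 CPM against at most 3.33, with a gap of 0.636 of the range. The limit for 6 samples is 0.625, and chance passes it in about 1 in 20 groups. The same mouse had no Ngfr count and the highest Sox10 (4.99 CPM) and S100b (29.7 CPM) at 7 d, with gaps within the limit for these 3. Without it, the log2 fold change at 7 d against 0 h was -0.18 for Mbp and 0.52 for Gap43, with adjusted p-values of 0.793 and 0.819 by edgeR. Its cause was not tested.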

How the results depend on the processing

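Under the alternatives run, 0 of the 7 members changed over the course except by limma without a date term, where 1 did (Prx), and 0 between successive late times. None differed from 0 h except 1 in fits of the 2 times compared alone (S100b at 12 h) and 1 by limma without a date term (Prx at 7 d). DESeq2's test and limma with date as a random term (correlation within dates 0.263) gave 0 in each case. Adjusted p-values over the course ran from 0.0417 (Prx, limma) to 0.923 (Ngfr), and from 0.135 to 0.968 when a mouse was left out. Members' log2 fold changes with an unadjusted p under 0.1, and those of Mbp and Gap43 at 7 d, kept their direction throughout. The count of changed myelin genes was 1 in place of 2 with date as a covariate (Mal, adjusted p = 0.0797), and 1 to 2 when a mouse was left out, at 1 for 17 of 30 mice. The count of lineage genes was 0 to 1 (0 without 3 h replicate 3), and the repair count was 7 to 10. Cnp did not pass without 3 h replicate 2 (0.0538), and Gdnf not without the left-foot mice (0.0712) or without 1 of 5 other mice. The myelin minus repair difference from 0 h moved to -0.30 at 14 d without Pmp22 and to -0.30 within the earlier dates, to -0.78 at 24 h and to -1.08 at 6 h within the later dates. At 6 h and 24 h its direction turned, to 0.20 and 0.13 within the earlier dates and to 0.32 without 6 h replicate 2 and 0.25 without 24 h replicate 3, and the 3 d difference, near 0, ran from -0.16 to 0.20. The cause was not tested. Sox10, Ngfr and Gap43 had 3 counts or fewer in 1 mouse each, and such counts are imprecise. No paired analysis was possible because, by the study's count of mice, each mouse gave 1 library. The labels carry no replicate numbers, and of the names only 1 pair across times shares both tag and date.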
